A study of Homo sapiens with 6 samples.

Results

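TRiC (also called CCT) is the cytosolic chaperonin of eukaryotic cells, a barrel of a pair of stacked rings that closes over a client protein and lets it fold at the cost of ATP. Each ring is built from the same set of paralogous subunits, which differ in client contacts and in how tightly they bind ATP. Actin and tubulin are its best known clients, and WD40 repeat proteins, among them CDC20 and the G protein beta subunits, are folded by it too. The data described here are the transcripts of its 8 subunit genes, TCP1 (which encodes CCT1), CCT2, CCT3, CCT4, CCT5, CCT6A, CCT7 and CCT8. They were taken by gene name from a count table of 32078 named genes. Each had 1 row, and all 8 were among the 14670 genes that passed the filter on low counts.

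The table covers 6 libraries of poly(A) RNA from PANC-1, an established human pancreatic carcinoma line. Of these, 3 carry the treatment label "none" (control replicates 1 to 3) and 3 are labelled as given extracellular vesicles (EVs) from cancer-associated fibroblasts (EV replicates 1 to 3). The labels name no other agent or allele, and no source used here gives the vesicle dose or the duration. The extraction text mentions vesicle treatment for all 6, and the grouping therefore follows the sample titles and the treatment field. Replicates are not said to come from separate cultures. The p-values then reflect spread among libraries alone, and that spread may be technical.

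Library totals were 21647493 to 27498709 counts, and no library pair agreed within sampling noise (chi-square per degree of freedom 4.85 to 9.83 within a group and 28.6 to 42.8 between groups). Of the 6 epithelial markers, KRT8, KRT18 and KRT19 could be tested. KRT19 was lower in the EV group, at 280 ± 14.7 against 391 ± 25 CPM (SD, n = 3 each; log2 fold change -0.48, adjusted p = 5.78e-06). KRT8 (0.14, adjusted p = 0.0687) and KRT18 (0.11, adjusted p = 0.132) did not pass. However, KRT8 was called higher in 6 of 15 alternatives, and KRT18 in 1, a correction for GC content and length (adjusted p = 0.0211). KRT7 had 1 to 10 counts, and EPCAM and CDH1 had 0 counts in every library, which allows up to 0.139 CPM (the count relative to the scaled library total). Of 9 fibroblast markers 2 could be tested. COL1A2 was higher in the EV group (186 ± 9.64 against 114 ± 12.6 CPM), and COL3A1 was not called (0.10, adjusted p = 0.398). The summed level of that list, mostly COL1A2, was 115 to 141 CPM in the control and 197 to 216 CPM in the EV libraries. DCN, LUM and THY1 were at 0 counts and COL1A1 at 1 to 3. PDGFRA (0 to 3 counts) and PDGFRB (0 to 13) had lower means in the EV group. With no count filter 1 marker of the list was called lower. The part of other cells' RNA in the results was not tested, and in bulk RNA a change in the number of cells of a type and in RNA per cell cannot be told apart. The immune list summed to 0.22 to 0.471 CPM in the control and 0.0917 to 0.407 CPM in the EV libraries, with PTPRC at 0 counts, CD68 at 0 to 2 and CD14 at 2 to 10. The endothelial list summed to 4.28 to 5.06 and 4.42 to 5.36 CPM, nearly all from CDH5 (94 to 140 counts), which was not called. Mitochondrially encoded genes held 0.747% to 1.06% of counts, with both groups over about the same range.

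Promoter windows, running from 250 bases before to 50 after an annotated start, were found for 7 of the 8 genes in the RefSeq table (GRCh38.p14). CCT6A had no entry. Windows of 4 subunit genes are printed because they span the range of responses described below, from TCP1, with the highest fold change, through CCT2 and CCT3 to CCT7, with the lowest. They run from 5′ to 3′ on the gene's strand, and capitals mark matches to the motifs named after them.
TCP1, chr6:159789553-159789852, minus strand: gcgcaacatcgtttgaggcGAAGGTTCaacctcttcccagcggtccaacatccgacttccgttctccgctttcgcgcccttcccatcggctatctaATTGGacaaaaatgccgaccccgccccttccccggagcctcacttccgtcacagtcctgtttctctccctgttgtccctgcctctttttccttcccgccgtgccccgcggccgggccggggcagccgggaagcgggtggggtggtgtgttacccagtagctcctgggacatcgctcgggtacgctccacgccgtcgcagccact
CCT2, chr12:69585209-69585508, plus strand: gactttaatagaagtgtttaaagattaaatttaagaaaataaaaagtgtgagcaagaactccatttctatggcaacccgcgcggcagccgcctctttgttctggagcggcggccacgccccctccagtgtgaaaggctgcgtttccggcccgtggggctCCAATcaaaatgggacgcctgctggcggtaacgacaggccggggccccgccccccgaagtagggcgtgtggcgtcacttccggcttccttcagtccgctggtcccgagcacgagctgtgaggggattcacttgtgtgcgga
CCT3, chr1:156338243-156338542, minus strand: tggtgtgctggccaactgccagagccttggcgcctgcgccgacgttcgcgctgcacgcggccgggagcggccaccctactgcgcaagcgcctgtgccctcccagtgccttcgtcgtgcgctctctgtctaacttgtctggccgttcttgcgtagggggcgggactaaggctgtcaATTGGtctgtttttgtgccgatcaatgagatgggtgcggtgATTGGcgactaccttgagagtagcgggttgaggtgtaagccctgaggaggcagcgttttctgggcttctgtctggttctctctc
CCT7, chr2:73234058-73234357, plus strand: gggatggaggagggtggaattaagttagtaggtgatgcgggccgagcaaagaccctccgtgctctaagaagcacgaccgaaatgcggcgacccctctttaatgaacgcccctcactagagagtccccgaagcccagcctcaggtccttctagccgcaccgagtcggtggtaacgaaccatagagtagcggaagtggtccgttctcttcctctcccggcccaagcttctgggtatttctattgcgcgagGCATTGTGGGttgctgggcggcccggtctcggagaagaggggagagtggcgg

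The motifs were searched on both strands. CCAAT, the box bound by NF-Y, occurred in 4 of the 9 member windows (1 each of TCP1, CCT2, CCT3 and CCT8), against 34.6% of all 35116 windows in the table. The GC box GGGCGG, not capitalised above, occurred in 6 of the 9, from 5 genes, against 45.0% of all windows. The 8-letter heat shock element GAANNTTC was found in 2 of the 9 windows (TCP1, 231 bases before the start, and a second CCT2 window), and its everted form TTCNNGAA in 1 (CCT4), against 6.77% and 7.74% of all windows. E-box letters CACGTG and the ZNF143-type letters ACTACAA were in 0 of the 9 member windows, against 7.26% and 2.77% of all. A longer ZNF143-type motif was found in CCT7 alone of the members, in capitals at its start site, against 1.73% of all windows. A match is only a description of these letters, and a missing match says nothing about the factor.

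TRiC transcripts were modestly more abundant in the EV libraries, with estimated log2 fold changes of 0.00 to 0.35 among the subunits. Counts of the 8 genes made up 0.429%, 0.424% and 0.441% of all counts in control replicates 1 to 3 and 0.471%, 0.483% and 0.473% in EV replicates 1 to 3. On the scaled level this was 4330 ± 69.9 CPM in the control and 4740 ± 44.6 CPM in the EV group (SD, n = 3 each). Every EV library held a larger TRiC share than every control library. Of the 8 subunits, 4 rose (TCP1, CCT2, CCT6A and CCT3, at an adjusted p under 0.05), 4 did not pass the test, and 0 fell. Among all tested genes 20.2% were called higher and 20.7% lower. Among the 2282 tested genes whose mean reached 100 CPM, where all 8 subunits lie, 28.1% were called higher and 23.2% lower. At an unadjusted p under 0.05, 0 subunits were lower by edgeR, and none was called lower with DESeq2 or limma-voom. The median log2 fold change of the 8 was 0.12, against -0.01 over all tested genes and 0.03 over those that reached 100 CPM.

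**Figure D1:**
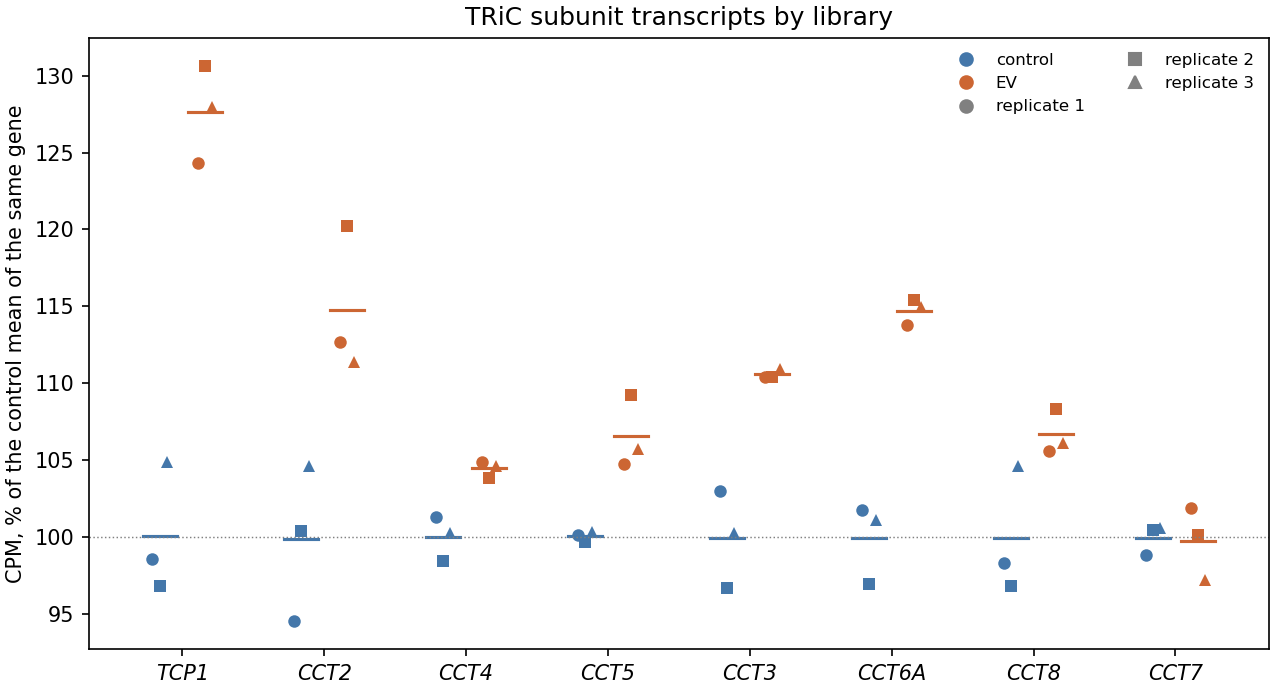
Level of each subunit transcript in each library, as a percentage of the control mean of the same gene in CPM (vertical axis, not starting at 0). Points are libraries (blue control, orange EV, shape for replicate number) and short lines are group means. All EV points of TCP1 lie above its control points, while those of CCT7 overlap them.

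The subunits are taken here by their side of the ring. Those on the side that binds ATP tightly, TCP1, CCT2, CCT4 and CCT5, come first, and those that bind it weakly follow. TCP1, the founding member of the family, was at 405, 398 and 431 CPM in the control replicates and at 511, 537 and 526 CPM in the EV replicates. Its groups were far apart: the lowest EV library stood above the highest control. The log2 fold change was 0.35 ± 0.06 (SE; adjusted p = 6.43e-05, edgeR quasi-likelihood test), a rise of 27.7%. TCP1 overlaps the sterol pathway gene ACAT2 by 558 bases on the opposite strand in GENCODE v29. The library kit kept the strand, but no source used here says whether counting used it. ACAT2 rose too, from 80.6 ± 5.61 to 110 ± 4.35 CPM (SD, n = 3 each), a difference of 29.3 CPM against 114 CPM for TCP1. With the whole ACAT2 count of each library subtracted from that of TCP1, a step chosen after the data were seen, the TCP1 log2 fold change was 0.33 (adjusted p = 0.000167). Of the other protein-coding overlaps on the opposite strand, COMMD1 (with CCT4) was at 20.6 and 22.3 CPM and TSACC (with CCT3) at 17 to 27 counts, and neither was called.

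CCT2, a subunit on the same side, was at 224, 238 and 248 CPM in the control replicates and at 267, 285 and 264 CPM in the EV replicates. The groups did not overlap, but the gap between them was narrow. Its log2 fold change was 0.20 ± 0.06 (SE; adjusted p = 0.0107), and the call was lost without control replicate 1 (adjusted p = 0.0536) or without EV replicate 2 (adjusted p = 0.0715). CCT4 was at 393, 382 and 389 CPM against 407, 403 and 406 CPM, and CCT5 at 631, 628 and 632 CPM against 660, 688 and 666 CPM. Both sets of EV values lay above the controls, by little. Neither passed the test, with log2 fold changes of 0.06 (95% interval -0.05 to 0.17, adjusted p = 0.367) and 0.09 (-0.02 to 0.20, adjusted p = 0.187). These intervals hold both no change and a rise of the size seen in CCT3.

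On the weakly ATP-binding side, CCT6A was at 634, 604 and 630 CPM in the control replicates and at 709, 719 and 716 CPM in the EV replicates. The EV libraries agreed closely and all exceeded the controls. CCT6A rose by 14.8% (log2 fold change 0.20 ± 0.05, SE; adjusted p = 0.00617), and like TCP1 it was called in each of 18 alternative settings. CCT3 was at 800, 751 and 779 CPM against 858, 858 and 862 CPM, again with no overlap. Its log2 fold change of 0.15 ± 0.05 (SE) passed by a small margin (adjusted p = 0.0374). The CCT3 call was lost when any of the libraries other than control replicate 1 was left out (adjusted p = 0.0617 without control replicate 3, 0.129 without control replicate 2, 0.0627, 0.0921 and 0.0591 without EV replicates 1, 2 and 3). CCT8 was at 403, 397 and 429 CPM against 433, 444 and 435 CPM, so that 1 control library lay close to the EV values. It did not pass (0.09, 95% interval -0.02 to 0.21, adjusted p = 0.191).

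CCT7 was the exception to the upward direction. It was at 847, 861 and 862 CPM in the control replicates and at 873, 858 and 833 CPM in the EV replicates, and both the highest and the lowest of the 6 values came from EV libraries. The log2 fold change was 0.00 ± 0.05 (SE; 95% interval -0.12 to 0.11, adjusted p = 0.971). A rise as large as that of TCP1, CCT2 or CCT6A lies outside this interval. In 7 of 8 subunits the lowest EV library exceeded the highest control, CCT7 being the one that did not. Over all tested genes, 25.1% had every EV library above every control library.

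**Figure D2:**
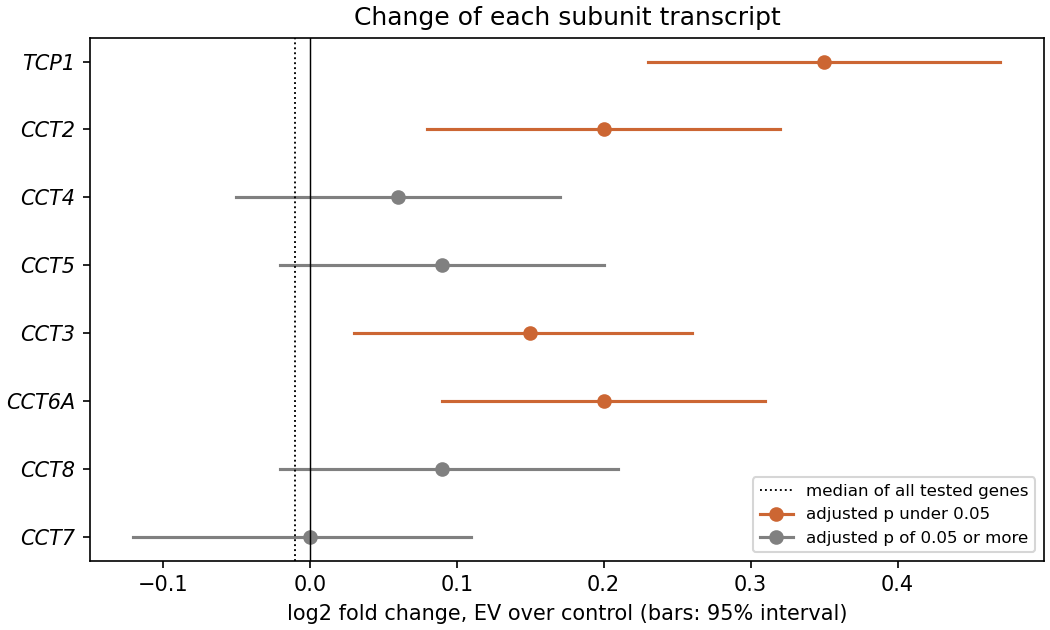
Log2 fold change of each subunit, EV over control (horizontal axis), with its 95% interval as a bar. Orange marks an adjusted p under 0.05 and the dotted line the median of all tested genes. TCP1 is farthest to the right at 0.35 and CCT7 sits at 0.00.

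Because a ratio within a library needs no scaling, the balance among subunits was also compared, as the log2 ratio of each to the geometric mean of the other 7. The groups did not overlap for 6 of the 8 subunits. No share of non-overlapping ratios was computed over other genes, so this count is a description only. TCP1 and CCT6A took a larger part in the EV libraries, and CCT4, CCT5, CCT7 and CCT8 a smaller part. The TCP1 ratio was -0.35, -0.36 and -0.29 in the control replicates and -0.12, -0.07 and -0.07 in the EV replicates, a difference of 0.24. That of CCT7 was 0.87, 0.92 and 0.86 against 0.76, 0.70 and 0.68, a difference of -0.17. The other 4 non-overlapping differences were between -0.09 (CCT4) and 0.06 (CCT6A). Each of the 6 had the smallest p that 3 against 3 libraries can give, 0.1 in an exact two-sided permutation test (0.133 adjusted over 8 subunits), so none could pass. CCT2 (0.07, exact p = 0.4) and CCT3 (0.00, exact p = 0.8) overlapped. The ratios share their denominators, so a rise in TCP1 lowers the ratios of the rest.

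As shares of all TRiC counts, TCP1 went from 9.49% ± 0.264 to 11.1% ± 0.204 and CCT7 from 19.8% ± 0.389 to 18.0% ± 0.424 (SD, n = 3 each). CCT6A went from 14.4% ± 0.225 to 15.1% ± 0.113, and the shares of CCT2 and CCT3 overlapped between the groups.

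**Figure D3:**
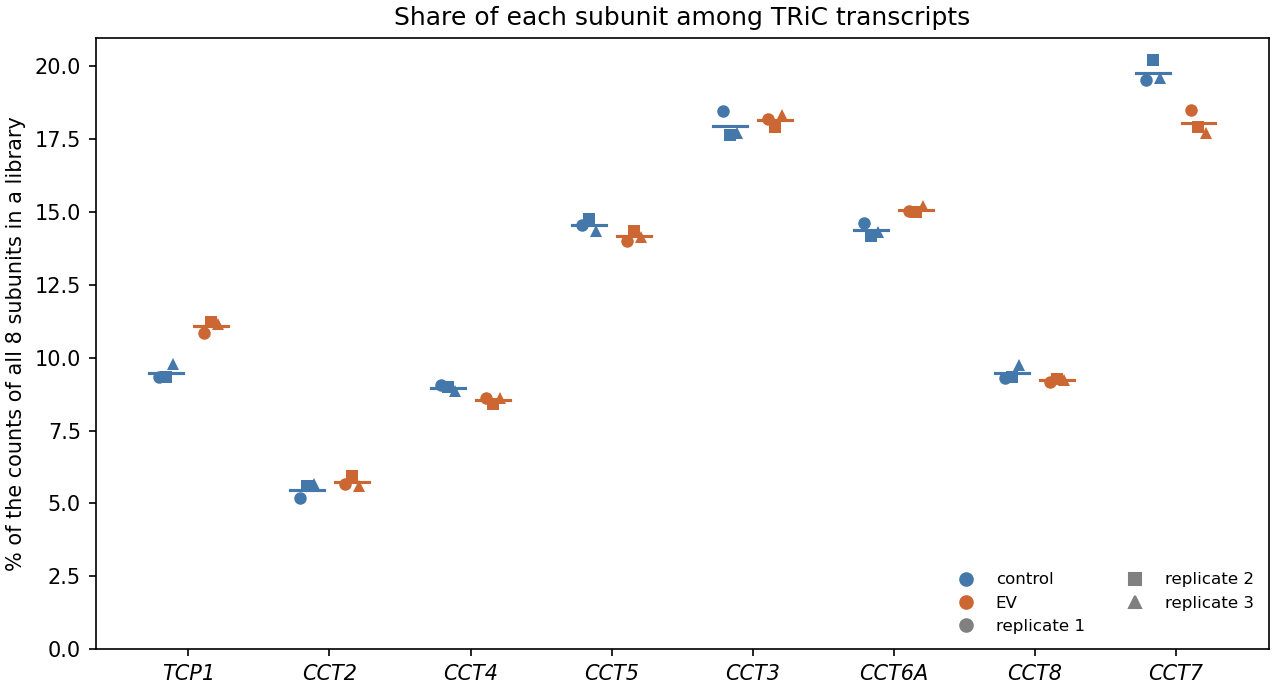
Share of each subunit in the counts of all 8 within a library (vertical axis, percent, from 0). Points are libraries and short lines are group means. TCP1 has means of 9.49% and 11.1% and CCT7 of 19.8% and 18.0%, while CCT2 and CCT3 overlap between groups.

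Levels between genes were compared per kilobase of exon (union of exons, GENCODE v29). In the control libraries CCT7 was highest at 419 ± 4.2 CPM per kilobase, followed by CCT3 at 343 ± 10.9, CCT6A at 229 ± 6.02 and CCT8 at 192 ± 7.8 (SD, n = 3 each). TCP1 (165 ± 6.97), CCT5 (156 ± 0.556) and CCT4 (154 ± 2.05) lay close together. CCT2 was lowest at 99.3 ± 5.07 CPM per kilobase. In the EV libraries TCP1 reached 210 ± 5.16 CPM per kilobase, beside CCT8 at 205 ± 2.8, a gap of about the SD of TCP1 and larger than that of CCT8. With the length of the principal transcript, a choice made after the data were seen, CCT5 (171) stood above TCP1 (165) in the controls. With that length CCT8 (218) also stood above TCP1 (210) in the EV libraries, so their order depends on the length used. The complex holds its subunits in equal number, and the transcript levels were not equal.

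Near-identical copies could take reads from the subunit genes. Rows of 12 pseudogenes were in the table, and in no library did they reach more than 4.50% of the parent's count (CCT8, from CCT8P1). For the other subunits the highest share was 0.969% (CCT6A). Adding these counts to their parents left 4 subunits called higher. Of the copies, CCT6P2 was called higher (0.547 ± 0.0899 against 0.200 ± 0.154 CPM, adjusted p = 0.0241) at 1 to 15 counts a library, and is uncertain for its likeness to other CCT6 copies. CCT6B, a paralog of CCT6A best known from testis, was at 4.78 ± 0.652 in the EV and 5.11 ± 0.85 CPM in the control group (SD, n = 3 each), with an adjusted p of 0.612.

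Genes that work with TRiC were taken from lists drawn up by function, with earlier results of these data known. Their counts stand against the 20.2% of all tested genes called higher and 20.7% called lower (28.1% and 23.2% of those that reached 100 CPM). With 3 to 6 tested genes a list, a count of 1 or 2 is not a result about the list. Prefoldin, the jellyfish-shaped co-chaperone that hands unfolded actin and tubulin to TRiC, had 2 of 6 subunits higher and 0 lower. Those were VBP1 (log2 fold change 0.38 ± 0.08, SE; adjusted p = 0.001) and PFDN4 (0.46 ± 0.11, adjusted p = 0.00234). The other prefoldin subunits were between -0.08 and 0.24, and PFDN5 was barely detected at 15 to 30 counts. Of the prefoldin-like proteins URI1, UXT and PDRG1, only UXT passed (0.37 ± 0.09, adjusted p = 0.00329). The phosducin-like proteins, which bind TRiC together with its clients, had 2 of 3 tested members higher. TXNDC9 rose from 18.7 ± 3.05 to 27.2 ± 2.54 CPM and PDCL, which helps to assemble G protein beta-gamma dimers, from 16.2 ± 1.89 to 22.7 ± 0.895 CPM, while PDCL3 was at 0.04 on the log2 scale. Of 4 tested tubulin folding cofactors, which take tubulin over from TRiC, only TBCB passed (0.16 ± 0.06, adjusted p = 0.0345). That call was lost in 6 of 15 alternatives, among them leaving out control replicate 1 or 3 or EV replicate 1 or 2 (adjusted p = 0.0962, 0.0775, 0.141 and 0.0739). None of the members of these 4 lists was lower by edgeR at an adjusted p under 0.05, nor at an unadjusted p under 0.05, nor under any of the alternatives, DESeq2 and limma-voom included.

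Of 16 tested actin and tubulin genes, 7 were higher and 4 lower (median log2 fold change 0.12), where 20.2% of all tested genes were higher and 20.7% lower. The lower count is near that background. The higher ones were all tubulins, with TUBG1, the gamma-tubulin of microtubule nucleation (0.31 ± 0.06, SE; adjusted p = 0.000233), TUBB4B (0.31 ± 0.06, adjusted p = 0.000293) and TUBB2A (0.32 ± 0.07, adjusted p = 0.000687) lowest in adjusted p, followed by TUBB3 (0.38 ± 0.10, adjusted p = 0.0045). The lower ones were ACTA2, smooth muscle actin, at 2.79 ± 0.676 against 5.23 ± 0.0418 CPM (-0.91 ± 0.17, adjusted p = 0.000233), TUBA1A (-0.23 ± 0.07, adjusted p = 0.0101), ACTG1 (-0.15 ± 0.06, adjusted p = 0.0439) and TUBG2 (-0.23 ± 0.09, adjusted p = 0.0449). ACTB, cytoplasmic beta-actin, was at -0.06 ± 0.06 (adjusted p = 0.434). Tubulin and actin genes have close relatives whose reads may be shared. Across 15 alternatives 5 to 7 of these genes were higher and 1 to 4 lower. Leaving out 1 library ended 5 of the calls. That of TUBA1A was lost without EV replicate 3 (adjusted p = 0.0741). That of ACTG1 was lost without control replicate 1 or 2 or EV replicate 2 or 3 (adjusted p = 0.173, 0.0878, 0.183 and 0.0795), and that of TUBA1C without control replicate 2 or 3 or EV replicate 2 or 3 (0.0609, 0.0949, 0.126 and 0.0579). TUBB lost its call without any library but control replicate 1 (adjusted p = 0.0635 to 0.16), and TUBG2 without any but control replicate 3 (0.0716 to 0.15). In all, the TUBG2 call was lost in 10 of 15 alternatives, among them DESeq2 (adjusted p = 0.103), limma-voom (0.0509), library totals (0.0544) and no count filter (0.0977). The replicate block ended the calls of TUBG2 (adjusted p = 0.056), ACTG1 (0.0606), TUBA1C (0.0656) and TUBB (0.0734), and upper-quartile scaling those of TUBA1C (0.0575) and TUBB (0.0729). TUBB was also lost with a filter of 1 CPM (0.053).

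Of 15 tested WD40 proteins and other reported clients, 7 were higher and 0 lower, with a median of 0.19. Over all tested genes 20.2% were higher and 20.7% lower (28.1% and 23.2% of those that reached 100 CPM). CCNE1, the cyclin of the G1 to S transition, had the largest rise (from 25.7 ± 0.290 to 42.4 ± 2.54 CPM, log2 fold change 0.72 ± 0.07, adjusted p = 2.7e-07). CDC20, the mitotic activator of the anaphase promoting complex (0.37 ± 0.06, adjusted p = 4.59e-05), the mitotic kinase gene PLK1 (0.32 ± 0.06, adjusted p = 0.000221) and GNB5 (0.37 ± 0.11, adjusted p = 0.00777) followed. STAT3, at 0.00 ± 0.06, and the G protein beta gene GNB1, at 0.00 ± 0.07, did not pass. At an unadjusted p under 0.05, 1 of the listed genes was lower, and across 15 alternatives, DESeq2 and limma-voom included, 5 to 7 were called higher and 0 to 1 lower. FZR1 was called, but not without control replicate 3 (adjusted p = 0.0513) or EV replicate 3 (adjusted p = 0.0618). The call of WRAP53 was lost without control replicate 2 or 3 or EV replicate 1 or 3, with an adjusted p of at least 0.0747. It was also lost with upper-quartile scaling (adjusted p = 0.054).

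**Figure D4:**
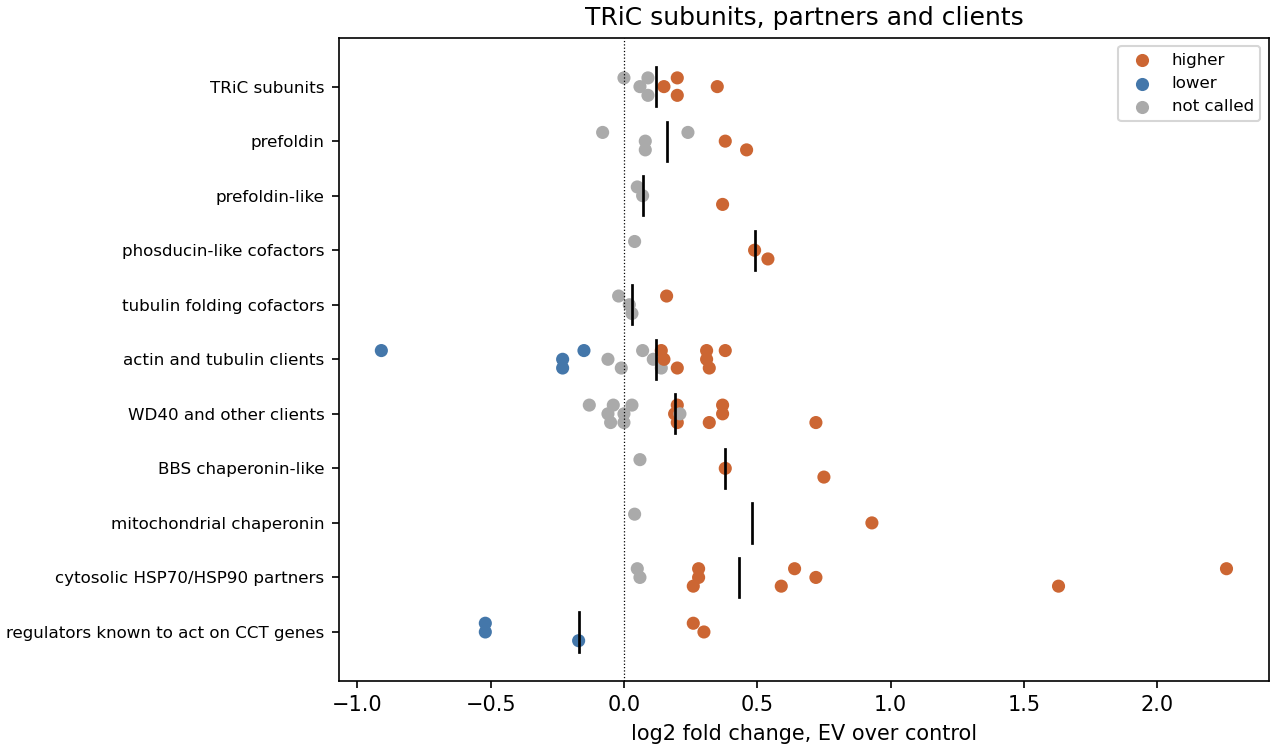
Log2 fold change, EV over control (horizontal axis), of the tested genes of each list. Orange points were called higher, blue lower and grey not called, and black bars are list medians. TRiC subunits lie between 0.00 and 0.35, and the HSP70 and HSP90 partners reach 2.26.

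The HSP70 system passes clients to TRiC, and the HSP70 and HSP90 systems share with TRiC the control by heat shock factors. Of 10 listed genes 8 were higher and 0 lower, with a median of 0.43, in the same libraries in which the subunits rose. Among all tested genes 20.2% were higher and 20.7% lower (28.1% and 23.2% of those that reached 100 CPM). HSPA8, the constitutive HSP70, went from 1890 ± 220 to 3090 ± 210 CPM, and HSPA1A and HSPA1B, inducible copies whose reads are hard to separate, were at 1.63 ± 0.12 and 2.26 ± 0.17 on the log2 scale. DNAJB1 (0.05) and HSP90AB1 (0.06) did not pass. At an unadjusted p under 0.05, 0 of the 10 were lower by edgeR, and 0 were called lower by DESeq2 or limma-voom. The log2 fold changes of HSPA8 (0.72), DNAJA1 (0.64) and HSPH1 (0.59) stand beside 0.35 for TCP1. Those of STIP1 (0.28), HSP90AA1 (0.28) and HSPA4 (0.26), also called higher, were below that of TCP1. The part of a wider heat shock response in the TRiC values was not tested. Of the mitochondrial chaperonin, the lid HSPE1 rose from 15.8 ± 2.14 to 30.1 ± 3.41 CPM. Its barrel subunit HSPD1 was far more abundant, at 975 ± 72 in the control and 1000 ± 26.3 CPM in the EV group (log2 fold change 0.04 ± 0.06). The cause of the low HSPE1 level was not tested. Of the chaperonin-like Bardet-Biedl syndrome proteins, MKKS (0.38 ± 0.10, adjusted p = 0.00449) and BBS12 (0.75 ± 0.16, adjusted p = 0.00113) rose and BBS10 was at 0.06 ± 0.10.

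Of 5 factors reported to act on CCT genes, 2 were higher and 3 lower. Over all tested genes 20.2% were higher and 20.7% lower, and 5 genes are too few for a result about the list. MYC fell from 419 ± 13.2 to 293 ± 16.2 CPM, and HSF1, the main heat shock factor, was at 185 ± 1.63 against 208 ± 4.17 CPM (-0.17 ± 0.05, adjusted p = 0.0186). HSF2 was higher at 0.26 ± 0.10 (adjusted p = 0.0432). The related zinc finger genes ZNF143 and ZNF76 moved apart, ZNF143 to 0.30 ± 0.08 (adjusted p = 0.00656) and ZNF76 to -0.52 ± 0.08 (adjusted p = 3.04e-05). The HSF2 call was lost when any library except control replicate 3 was left out (adjusted p = 0.0677 to 0.171), with DESeq2 (0.0585), with upper-quartile scaling (0.067) and with a correction for GC content and length (0.0876). That of HSF1 was lost without control replicate 2 or EV replicate 1 or 2 (adjusted p = 0.0561, 0.0681 and 0.0708) and with no count filter (0.0608). These are transcript levels, and the activity of the factors was not measured.

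Across the 6 libraries the mean log2 CPM of the 8 subunits was 8.97, 8.95 and 9 in the controls and 9.10, 9.13 and 9.10 in the EV libraries. Pearson correlations of log2 CPM between pairs of subunits (28 pairs, 6 libraries that share 2 groups) ran from -0.21 to 0.99 with a median of 0.85, with the pairs that include CCT7 at -0.21 to 0.13. Among 8946 other genes of at least 10 CPM, the pattern nearest to the subunit mean was that of TIMM17A, a subunit of the mitochondrial inner membrane translocase (r = 0.9999 over 6 libraries), followed by TRMT10C (r = 0.9995), CHSY1 (r = 0.9992), RMI1 (r = 0.9982) and ADH5 (r = 0.9979). With so few libraries in 2 groups, high values are found for many genes, and they are given as a description only. TIMM17A itself went from 66.0 ± 6.21 to 108 ± 6.83 CPM (log2 fold change 0.71 ± 0.07, SE).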

How the data were processed

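The members and gene lists were chosen with earlier results of these data known. The authors deposited raw counts per gene (whole numbers, 32453 rows, 6 libraries). TopHat, RSEM and hg19 appear in the submitters' processing notes without versions or roles, and no source used here gives the annotation release or strand setting. Of the rows, 375 without a gene name (0.099% to 0.134% of counts) were left out. The authors' deposited table of log2 means, log2 fold changes, p-values and q-values has fold changes as control over EV. It was read only for a comparison in the closing section.

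The test on counts was that of edgeR 4.0.16 under R 4.3.3 (quasi-likelihood, filterByExpr, TMM factors, Benjamini-Hochberg over 14670 genes, called at an adjusted p under 0.05). An adjusted p with no tool named is from this test. The code of the test was run on simulated counts, and that run does not bear on the calls made here. Fold changes are EV over control, with a prior count of 0.125, and the SE is the size of the log2 fold change over the root of the F statistic. CPM used TMM factors, and log2 CPM a prior count of 2. A count of 0 allows up to 3 counts (0.109 to 0.139 CPM), for counting error only. Named genes were all 8 members, list members (lowest adjusted p first, up to 4 a direction, and all whose call changed) and the 5 genes most correlated with the subunit mean; list members outside these were chosen after their values were seen. For 1 listed client gene, values are not reported here. Lengths, GC content and overlaps come from GENCODE v29 (GRCh38), and promoter windows from RefSeq. Alternatives were other scaling, filters, DESeq2 1.42.0, limma-voom (limma 3.58.1), a replicate block, a stricter threshold, each library left out, pseudogene counts added and, after the data were seen, ACAT2 counts subtracted and a GC content and length correction.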

Additional observations from a re-analysis of the deposited data

How the results depend on the processing

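The 4 subunits called higher became 3 with upper-quartile scaling (without CCT3, adjusted p = 0.065), 2 at an adjusted p under 0.01 (TCP1 and CCT6A), and 2 to 3 with 1 library left out, the 2 being without EV replicate 2. With median-ratio or library-total scaling, another count filter, DESeq2, limma-voom, pseudogene counts added, ACAT2 counts subtracted or the GC content and length correction it was 4. No subunit was called lower under any of these. Replicate numbers are shared by the groups, but same-numbered libraries did not deviate together (correlations -0.02, -0.01 and -0.01). With a replicate block 3 subunits were called, CCT3 being lost (adjusted p = 0.0709), and 2846 genes were higher and 2897 lower in place of 2965 and 3036. Over 18 alternatives the log2 fold change of TCP1 ran from 0.31 to 0.39, of CCT6A from 0.17 to 0.21, of CCT2 from 0.16 to 0.23 and of CCT3 from 0.12 to 0.17. That of CCT7 ran from -0.02 to 0.02, that of CCT4 from 0.03 to 0.08, of CCT5 from 0.07 to 0.11 and of CCT8 from 0.04 to 0.13, and none of these 4 was called. The number of subunits whose ratio to the others did not overlap was 6 with pseudogene counts added. With 1 library left out it was 6 to 7, but leaving one out cannot lower this number, so that range says nothing about stability. With 3 libraries a group, a change of the size seen in CCT4, CCT5 and CCT8 could not be told from none.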

Other observations

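In the authors' deposited table all 8 subunits are listed, and 4 have a q under 0.05: TCP1, CCT2, CCT3 and CCT6A, which are also the ones called here. The authors' deposited table gives log2 fold changes of control over EV of -0.37 for TCP1 and -0.01 for CCT7, and 0 of the 8 are marked as up or down in it. Both comparisons rest on the same libraries.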
